A study of Homo sapiens with 4 samples.

Results

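The genes described here encode 10 proteins that detect foreign or misplaced RNA and DNA, pass that signal on, or limit it, upstream of interferon. They were chosen by name for their place in the pathway, by a rule that uses no measured value but with earlier results of these data known, and are DDX58 (RIG-I), IFIH1 (MDA5), DHX58 (LGP2), MAVS, TLR3, MB21D1 (cGAS), TMEM173 (STING), IFI16, EIF2AK2 (PKR) and ADAR. All 10 were found among the 29655 gene names in the tables, and all 10 were among the 11874 protein-coding genes tested. RNA was sequenced from UMSCC74B, a line of head and neck squamous cell carcinoma (HNSCC). Libraries with the genotype WT and the treatment CONTROL came from cells given a control shRNA plasmid (n = 2), and libraries with the genotype PRMT5 KD came from cells given a plasmid with an shRNA to PRMT5, an arginine methyltransferase (n = 2). By the sample descriptions, cells of both groups were transfected with plasmid and kept without antibiotic for 72 h afterwards. The study's methods instead describe lentiviral particles for knockdown, so the way of delivery is not settled here. No library from cells without an shRNA was analysed here. One cell line was used, and nothing states that the replicates came from separate cultures, so the p-values measure only the spread between these libraries, which may be technical. A bulk library cannot tell apart fewer cells of a kind and less RNA per cell.

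Cells tell viral nucleic acid from their own by its structure and its place. RIG-I and MDA5 are helicases of the cytoplasm that bind RNA with a 5′ triphosphate and long double-stranded RNA, and both signal through MAVS on the mitochondrial surface, while LGP2 is a relative without the signalling domain. TLR3 reads double-stranded RNA inside endosomes. cGAS binds DNA in the cytoplasm and makes the messenger cGAMP, which activates STING on the endoplasmic reticulum, and IFI16 binds DNA as well. The adaptors activate the kinase TBK1 and the factors IRF3 and IRF7, which switch on type I interferon. PKR halts translation when it binds double-stranded RNA, and ADAR edits such RNA so that it is no longer read as foreign. Several of these sensors are themselves induced by interferon.

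Interferon regulatory factors bind promoter elements built around 2 copies of GAAA with 2 bases of any kind between them, so these letters were searched for on both strands of each gene's start region, taken from RefSeq (GRCh38.p14) as 300 bases that run from 250 before the start to 50 after it. A window was found for 7 of the 10 genes, and DHX58, MB21D1 and TMEM173 had none. The paired letters stood in the windows of IFIH1, EIF2AK2 and TLR3, 3 of these 7 genes, against 4.38% of all 27305 genes with a window. TTCNNNGAA, with N any base, was also searched for and stood in the window of TLR3 alone, against 9.38% of all genes. The 3 genes with paired letters are shown because they were the sensors with such a match. Each stretch of 30 bases is written along the strand of the gene, with the matching letters in capitals, and a match in TTTC form lies on the opposite strand.
IFIH1, chr2:162318686-162318715, minus strand: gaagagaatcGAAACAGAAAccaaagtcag
IFIH1, chr2:162318824-162318853, minus strand: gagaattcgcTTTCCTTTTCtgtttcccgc
EIF2AK2, chr2:37156967-37156996, minus strand: agtccaagggGAAAACGAAActgagaacca
TLR3, chr4:186069142-186069171, plus strand: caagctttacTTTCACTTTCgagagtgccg
The IFIH1 window held 3 matches, of which the third overlaps the second one shown. The first base of the matches lay 21 bases before the start in the first IFIH1 stretch, 6 before it in EIF2AK2 and 4 before it in TLR3. A match describes the letters in a window and not a site in use, and the absence of a match says only that these letters are not in that window.

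Library totals ranged from 52185289 to 65964558 counts. PRMT5 itself (chromosome 14, 22920525 to 22929408, minus strand) was at 94.4 and 84.3 CPM (counts per 1000000, TMM-scaled) in control and at 132 and 150 CPM in those labelled PRMT5 KD. It was therefore higher under the knockdown label, with a log2 fold change of 0.66 (SE 0.12, FDR 0.00545), and the call was lost without control replicate 2 (FDR 0.0675). The sample descriptions state that PRMT5 mRNA and protein were also assessed by quantitative PCR and immunoblot, which were not analysed here. Every direction given for the sensors rests on the labels. Of 8 squamous epithelial markers, TP63 alone passed the filter on low values, at 5.51 and 6.60 CPM in control and at 1.75 and 3.01 CPM under the PRMT5 KD label. Other markers of this list went the other way on low counts. KRT17 had 5 and 6 counts in control against 53 and 71, SFN 3 and 5 against 28 and 86, and KRT14 0 and 0 against 11 and 22. EPCAM had 37 and 29 against 40 and 48, CDH1 9 and 4 against 2 and 4, and KRT6A 0 and 1 against 0 and 0. KRT5 had counts of 0, 0, 0 and 4. All 8 markers together had 217 to 379 counts per library, so the markers that define the labelled cell type were close to absent in all 4 libraries. All 6 fibroblast markers were called lower under the PRMT5 KD label, against 24.3% of all genes tested. Their summed levels were 629 and 728 CPM in control against 87.7 and 97.3 CPM. Of 8 leukocyte markers, CD14 had 1371 and 2000 counts in control against 51 and 89 and was called lower, whereas the other 7 summed to 14 and 20 counts against 28 and 20, with CD3E and CLEC4C at 0 in all 4 libraries. Of 4 endothelial markers, PECAM1 had 293 and 489 counts against 14 and 7 and was called lower, and all 4 summed to 433 and 738 counts against 100 and 55. The part of these shifts in the sensor values was not tested.

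Of the 10 sensor genes, 4 rose and 1 fell in the libraries labelled PRMT5 KD. IFIH1, MB21D1, IFI16 and ADAR were called higher, MAVS was called lower, and DDX58, DHX58, EIF2AK2, TLR3 and TMEM173 did not pass. A gene was called when its FDR in edgeR's quasi-likelihood test was under 0.05 and its log2 fold change was 0.5 or more in size. Over all genes tested, 45.5% were called by this rule, 21.2% higher and 24.3% lower, so 5 of 10 is close to the share among all genes. The median log2 fold change was 0.60 over the sensors and -0.01 over all genes tested, and 8 of the 10 sensors had a value above 0. None of the 10 reached an absolute log2 fold change of 1 with an FDR under 0.05, against 21.5% of all genes. An FDR under 0.05 was reached by 5 sensors, against 54.4% of all genes, and an unadjusted p under 0.05 by 6, against 60.6%. Both libraries labelled PRMT5 KD were above both controls for 6 sensors, against 39.9% of all genes, and below both for 1, against 40.6%.

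**Figure D1:**
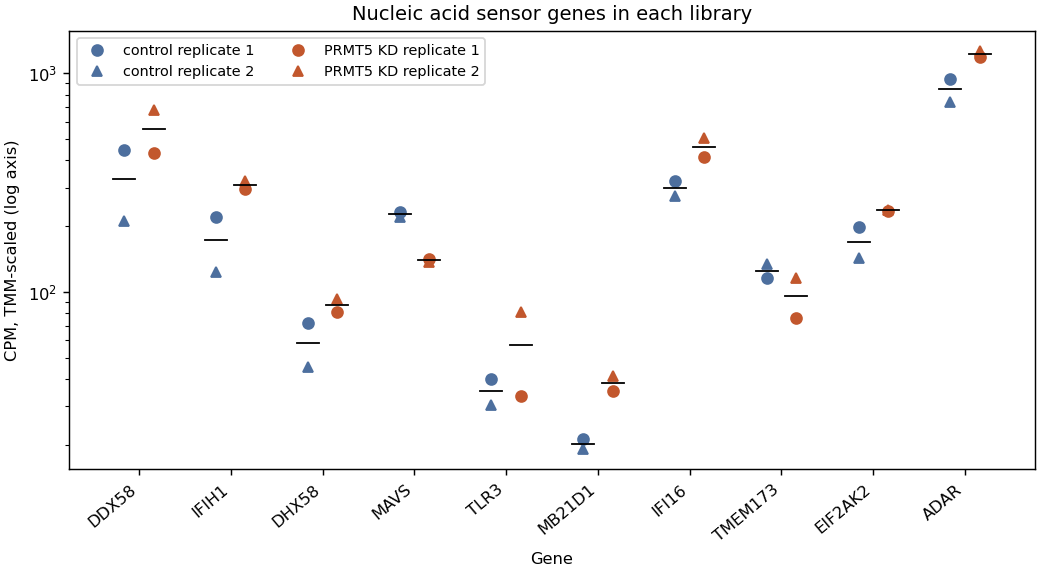
Level of each sensor gene in each library, in TMM-scaled CPM on a log axis. Colour marks the group, control or labelled PRMT5 KD. Circles are replicate 1 and triangles replicate 2 of each group, and short lines are group means. The groups are apart for 7 genes and overlap for DDX58, TLR3 and TMEM173.

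Among the RNA helicases, MDA5 rose while RIG-I and LGP2 did not pass the test. IFIH1 (chromosome 2, 162267074 to 162318684, minus strand), the MDA5 gene with 3 promoter matches, was at 220 and 124 CPM in control and at 297 and 321 CPM in those labelled PRMT5 KD. The groups did not overlap, but the controls lay further apart than the libraries labelled PRMT5 KD. The mean went from 172 ± 68.2 to 309 ± 17.2 CPM (SD, n = 2), a log2 fold change of 0.84 (SE 0.28, FDR 0.0484). This call stood only just inside the threshold: without control replicate 2 the log2 fold change was 0.49 (FDR 0.103), without PRMT5 KD replicate 1 it was 0.94 (FDR 0.220) and without PRMT5 KD replicate 2 it was 0.79 (FDR 0.292). Without control replicate 1 it was 1.32 (FDR 0.0105). With no filter on low values it was 0.90 and not called (FDR 0.0557).

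DDX58 (chromosome 9, 32455302 to 32526208, minus strand), which encodes RIG-I, was at 448 and 211 CPM in control and at 430 and 678 CPM in those labelled PRMT5 KD. The highest control library was above the lower library labelled PRMT5 KD. The log2 fold change of 0.75 (SE 0.43, FDR 0.201) was therefore within the spread of the libraries, although it was larger than that of ADAR, which passed. It became 1.40 and was called without control replicate 1 (FDR 0.0386), and was 0.31 without control replicate 2. The annotation holds a protein-coding gene without a symbol on the same strand that shares 4471 exonic bases with DDX58, 43.2% of its exons. It is not named in the tables, so reads from that stretch could belong to either.

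DHX58 (chromosome 17, 42101404 to 42112714, minus strand) encodes LGP2, which tunes signalling by its relatives. It was at 71.8 and 45.1 CPM in control and at 81.1 and 92.5 CPM in those labelled PRMT5 KD. The groups did not overlap, and the log2 fold change of 0.57 (SE 0.23, FDR 0.0832) did not pass. It was called without control replicate 1 (0.94, FDR 0.0196) and was 0.27 without control replicate 2.

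The adaptor to which both RIG-I and MDA5 signal was lower. MAVS (chromosome 20, 3846799 to 3876123, plus strand) was at 233 and 221 CPM in control and at 141 and 137 CPM in those labelled PRMT5 KD. The replicates of each group lay close together and the groups were far apart. The mean went from 227 ± 8.7 to 139 ± 2.7 CPM (SD, n = 2), a fold of 0.61 and a log2 fold change of -0.71 (SE 0.11, FDR 0.00258). It was called without any one library, with log2 fold changes between -0.74 and -0.67. With offsets for exon length and GC content the fold shrank to -0.35 on the log2 scale, short of the fold threshold, with an FDR of 0.0319. With 11771 exonic bases, MAVS was among the longest of the 10 genes.

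TLR3 (chromosome 4, 186068911 to 186088073, plus strand), the endosomal receptor, was at 39.9 and 30.3 CPM in control and at 33.3 and 80.6 CPM in those labelled PRMT5 KD. The first library labelled PRMT5 KD lay between the controls and the second was far above all others. Its log2 fold change of 0.70 (SE 0.45, FDR 0.254) did not pass and rested on that 1 library. Without PRMT5 KD replicate 2 the value was -0.07, and without PRMT5 KD replicate 1 it was 1.24 and called (FDR 0.000419).

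In the DNA arm, cGAS and IFI16 rose and STING did not pass. MB21D1 (chromosome 6, 73413515 to 73452297, minus strand), which encodes cGAS, was at 21.2 and 19.1 CPM in control and at 35.3 and 41.3 CPM in those labelled PRMT5 KD. Replicates were close and the groups did not overlap. Its mean went from 20.1 ± 1.5 to 38.3 ± 4.3 CPM (SD, n = 2), a fold of 1.91 and a log2 fold change of 0.93 (SE 0.14, FDR 0.00232). This was the largest log2 fold change of the 10 sensors over all 4 libraries, though DDX58 (0.98) and ADAR (0.90) exceeded it (0.85) with length and GC offsets. With the replicate number as a block beside the offsets, DDX58 (1.035), ADAR (0.90) and IFIH1 (0.87) exceeded it (0.85). DDX58 (1.40) and IFIH1 (1.32) did so without control replicate 1 (1.01). TLR3 (1.24) did so without PRMT5 KD replicate 1, where MB21D1 was at 1.08 or less. MB21D1 was called in all 14 alternative settings, with 0.82 to 1.08 when any one library was left out. It shares 180 exonic bases with DDX43 on the opposite strand, and DDX43 had a count of 0 in all 4 libraries.

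TMEM173 (chromosome 5, 139475533 to 139482935, minus strand), which encodes STING, the receptor of the cGAS product, was at 116 and 134 CPM in control and at 76.0 and 116 CPM in those labelled PRMT5 KD. The second library labelled PRMT5 KD was level with the first control. The log2 fold change was -0.38 (SE 0.22, FDR 0.188). Without PRMT5 KD replicate 2 it was -0.71 and called lower (FDR 0.00187), and without PRMT5 KD replicate 1 it was -0.07.

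IFI16 (chromosome 1, 158999968 to 159055155, plus strand), a DNA-binding protein of the nucleus and cytoplasm, was at 321 and 274 CPM in control and at 414 and 505 CPM in those labelled PRMT5 KD. The groups did not overlap. Its mean went from 298 ± 33.4 to 459 ± 64.5 CPM (SD, n = 2), a log2 fold change of 0.63 (SE 0.16, FDR 0.0162). IFI16 shares 425 exonic bases (8.03%) with PYDC5, a gene on the opposite strand. PYDC5 was not among the gene names counted, so its own reads are unknown. The call was lost without control replicate 1 (0.75, FDR 0.0593), without control replicate 2 (0.52, FDR 0.141) and without PRMT5 KD replicate 2 (0.48, under the fold threshold, FDR 0.0249).

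The editing enzyme for double-stranded RNA rose, and the kinase PKR had a similar value just short of the threshold. ADAR (chromosome 1, 154581695 to 154628013, minus strand) was at 946 and 741 CPM in control and at 1191 and 1263 CPM in those labelled PRMT5 KD. The groups did not overlap. Its mean went from 844 ± 145 to 1227 ± 50.9 CPM (SD, n = 2), a log2 fold change of 0.54 (SE 0.17, FDR 0.0331). The call was lost without control replicate 1 (0.73, FDR 0.0552) and without control replicate 2 (0.38, FDR 0.229).

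EIF2AK2 (chromosome 2, 37099210 to 37157522, minus strand), the PKR gene, was at 198 and 142 CPM in control and at 236 and 237 CPM in those labelled PRMT5 KD. The libraries labelled PRMT5 KD were almost equal and above both controls. The log2 fold change of 0.48 (SE 0.17, FDR 0.0531) missed both thresholds narrowly. It was called in 7 of 14 alternative settings, with 0.73 (FDR 0.0309) without control replicate 1 and 0.26 without control replicate 2. Its deposited counts carried decimals, and 401 of its exonic bases overlap the pseudogene ARL14EPP1, which lies on the opposite strand and is not named in the tables.

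**Figure D2:**
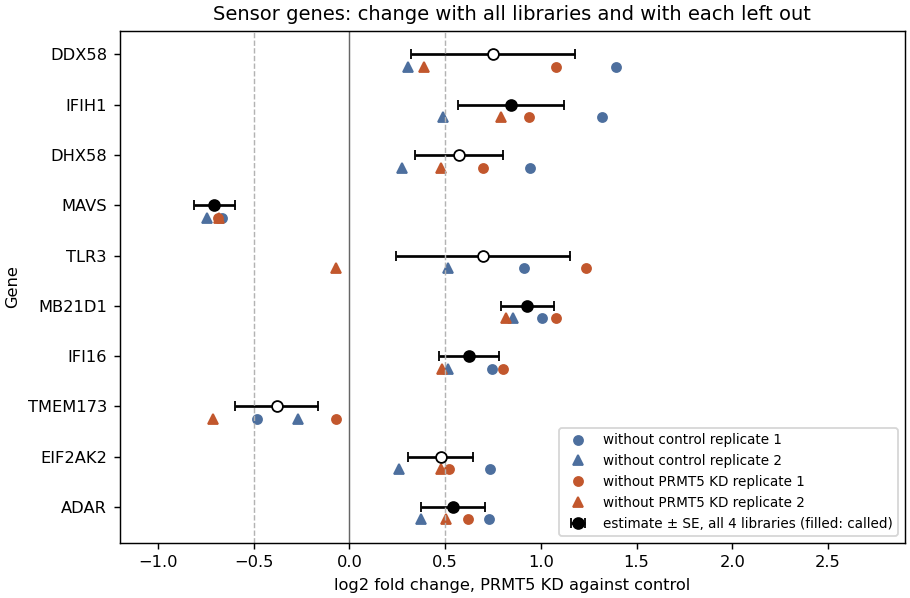
Log2 fold change of each sensor gene, libraries labelled PRMT5 KD against control, from edgeR. Points with bars are the estimate ± SE over all 4 libraries and small marks are the estimates with 1 library left out. MAVS and MB21D1 stay on one side with little movement, whereas TLR3 reaches from -0.07 to 1.24.

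Levels between genes were compared per kilobase of exon (RPKM), which CPM values do not allow. In control, ADAR had the highest mean level at 68.9 RPKM, followed by IFI16 at 56.2, IFIH1 at 32.9, DDX58 at 31.8, TMEM173 at 26.1, MAVS at 19.3, EIF2AK2 at 15.4, DHX58 at 15.3, MB21D1 at 4.82 and TLR3 at 4.68 RPKM. Neighbours in this order overlapped between the control libraries for ADAR and IFI16, IFIH1 and DDX58, DDX58 and TMEM173, EIF2AK2 and DHX58, and MB21D1 and TLR3. Under the PRMT5 KD label the upper end of the order was the same in the means, with ADAR at 100 and IFI16 at 86.7 RPKM. MAVS, at 11.8 RPKM, was below DHX58 at 22.7 and EIF2AK2 at 21.4 RPKM in both libraries. TMEM173, at 15.8 and 24.3 RPKM, overlapped DHX58 and EIF2AK2. cGAS and TLR3 stayed the lowest of the 10, at 9.18 and 7.60 RPKM.

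Replicates of one group differed in the same direction for most sensors. The sensor level was higher in control replicate 1 than in control replicate 2 for 9 of 10 genes, against 46.9% of all genes tested, and higher in PRMT5 KD replicate 2 than in PRMT5 KD replicate 1 for 9 of 10, against 50.1%. The median differences were 0.37 between the controls and 0.20 between the libraries labelled PRMT5 KD on the log2(CPM + 1) scale, against -0.01 and 0.00 over all genes. DDX58 differed by 1.09 between the controls, and 0.253% of genes had a difference at least as large in either direction. IFIH1 differed by 0.83 between the controls (0.573% of genes) and TLR3 by 1.25 between the libraries labelled PRMT5 KD (0.80% of genes). MAVS, in contrast, differed by 0.08 between the controls and by -0.04 between the libraries labelled PRMT5 KD. MB21D1 differed by 0.14 and 0.22, and these 2 genes had the lowest FDRs among the sensors.

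**Figure D3:**
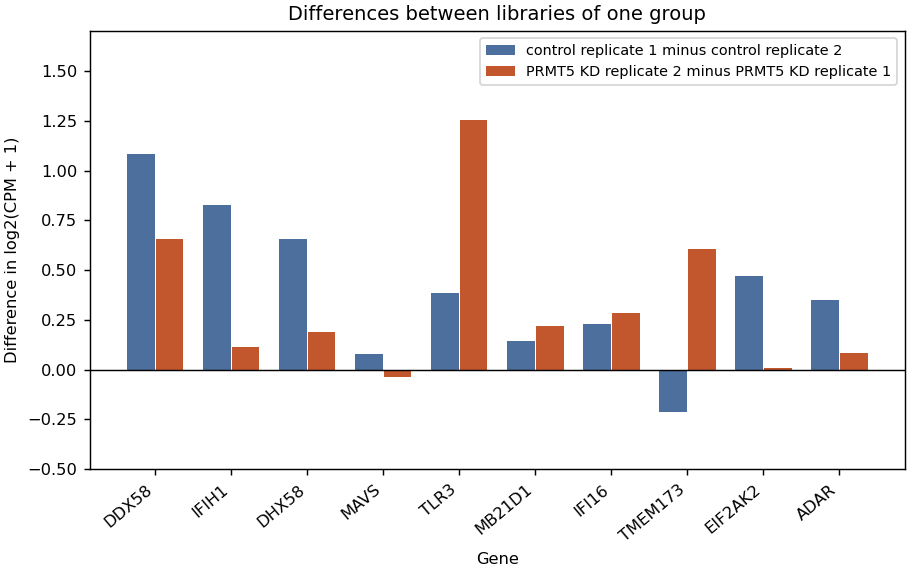
Difference between replicates of one group for each sensor gene, on the log2(CPM + 1) scale. Bars that point up mean a higher level in control replicate 1 than control replicate 2, or in PRMT5 KD replicate 2 than PRMT5 KD replicate 1. Of 10 genes, 9 point up in each group.

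Differences between replicates in these directions were larger in a list of targets that sensor signalling or interferon switches on. Which of these moved them was not tested. Of 13 such targets, 11 were higher in control replicate 1 than in control replicate 2 and 11 higher in PRMT5 KD replicate 2 than in PRMT5 KD replicate 1, with median differences of 1.02 and 0.69. IFIT2, an antiviral protein that binds RNA, was at 663 and 137 CPM in control and at 695 and 2467 CPM in those labelled PRMT5 KD. Its log2 fold change of 1.98 (FDR 0.154) did not pass. Of the 13 targets, 10 were called higher, against 21.2% of all genes, and none lower, their median log2 fold change was 1.98, and all 13 had a value above 0. The count was 12 without control replicate 1, 7 without control replicate 2 and 6 without either library labelled PRMT5 KD, and the median ranged from 1.32 to 2.57. The largest changes were in CCL5, a chemokine for T cells (1.47, 1.82, 95.9 and 53.0 CPM, log2 fold change 5.49), and RSAD2, an antiviral enzyme (176, 38.1, 1260 and 2136 CPM, log2 fold change 3.99). CXCL11, another chemokine, rose by 3.96 and ISG15, a ubiquitin-like protein, by 2.48 on the log2 scale. The paired GAAA letters stood in the windows of 10 of the 11 targets that had one.

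The other parts of the pathway had calls in both directions, to be read against the 21.2% of all genes called higher and 24.3% lower. Of 17 adaptors, kinases and IRFs, 3 were called higher and 2 lower, with a median of 0.02. IRF7, the inducible factor that drives interferon-alpha genes, rose from 41.7 and 27.0 CPM to 69.8 and 78.7 CPM (log2 fold change 1.12, FDR 0.00812). IKBKG, a scaffold of the NF-kB kinase, rose by 0.80 and TRAF2 by 0.51, while TRAF3, which links MAVS to TBK1, fell by 0.93 and TBKBP1 fell by 0.68. Of 17 regulators of RIG-I, MDA5 and MAVS, 1 was called higher and 2 lower, with a median of -0.01. The one that rose was ZC3HAV1 (ZAP), a zinc finger protein that binds viral RNA, from 171 and 130 CPM to 457 and 786 CPM (log2 fold change 2.05, FDR 0.00352), and those that fell were MEX3C by 0.67 and TRIM4 by 0.57. Regulators of cGAS and STING had 2 higher and 2 lower of 14, with a median of -0.06. BANF1, which covers DNA and limits cGAS, rose by 0.72 and the folate carrier SLC19A1, which also takes up cyclic dinucleotides, by 0.51. INSIG1 fell by 1.39 and ENPP1, which breaks down cGAMP, fell by 0.73.

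Enzymes that edit, cut or clear nucleic acids had 5 higher and 3 lower of 15, with a median of 0.46. The members that rose were mainly of the oligoadenylate synthetase family, beside RNASEH2A, a subunit of RNase H2, which rose by 1.64. OAS2 rose by 1.69, OAS1 by 1.66 and OAS3 by 1.56, all of which activate RNase L on double-stranded RNA. The related OASL rose by 3.09. OAS2 went from 463 and 266 CPM to 885 and 1464 CPM. The editing enzyme ADARB1 fell by 1.00, opposite in sign to ADAR, and the lysosomal nuclease DNASE2 fell by 0.66. Among 15 further nucleic acid sensors that were tested, 5 were called higher and 2 lower, with a median of 0.39. AIM2, which builds the inflammasome on DNA and shares the DNA-binding domain of IFI16, rose from 8.17 and 7.16 CPM to 23.9 and 32.1 CPM (log2 fold change 1.87, FDR 0.000651). HMGB1 rose by 1.24 and MRE11A by 0.90, and PRKDC, the DNA-dependent kinase, fell by 1.03.

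Relatives of PKR and TLR3 were called in both directions as well. Of 7 genes for eIF2-alpha kinases, their target and its phosphatases, 1 was called higher and 3 lower, with a median of -0.05. EIF2S1, the PKR target, rose by 0.90, whereas DNAJC3, a PKR inhibitor, fell by 1.26 and EIF2AK3 (PERK) fell by 1.08. Of 7 other toll-like receptor genes tested, the adaptor TIRAP was called higher at 0.63, and TLR6 at -1.13 and TLR2 at -0.82 were called lower. In all, 115 of 144 other pathway genes were tested, of which 29 (25.2%) were called higher and 18 (15.7%) lower, with a median of 0.17. Together 40.9% were called, close to the 45.5% of all genes.

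The interferon genes were barely detected. Of 21 in the tables, 10 had a count of 0 in all 4 libraries, which allows up to 3 counts per library for counting error only. IFNB1, the first type I interferon made after sensing, had counts of 18 and 2 in control and of 22 and 8 in the libraries labelled PRMT5 KD. IFNL1 had 7 and 1 against 24 and 1, and IFNG 1 and 1 against 27 and 4. These genes did not pass the filter. With no filter on low values, the log2 fold change was 0.46 for IFNB1 (FDR 0.744) and 1.54 for IFNL1 (FDR 0.448), and IFNG was called at 3.76 (FDR 0.0331) on counts that came mainly from PRMT5 KD replicate 1. IFNE, a type I interferon of epithelia, was the exception and passed the filter, falling from 17.7 and 12.9 CPM to 1.26 and 2.13 CPM (log2 fold change -3.17, FDR 0.000617). IFNAR1, a chain of the type I interferon receptor, fell by 0.91 on the log2 scale.

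**Figure D4:**
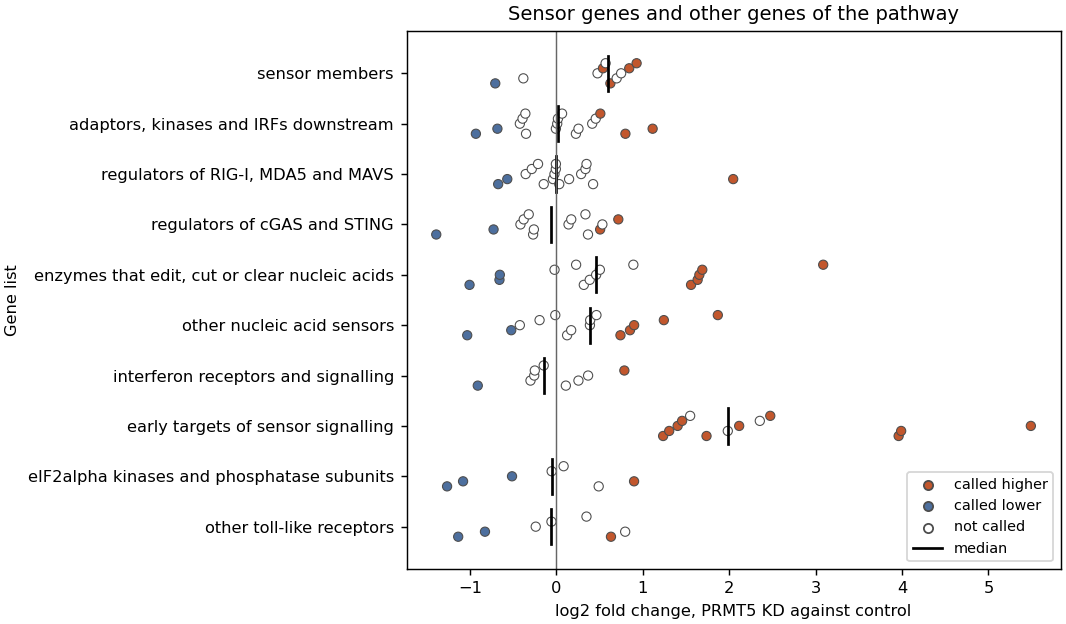
Log2 fold change of each tested gene in the sensor set and in the other pathway lists, libraries labelled PRMT5 KD against control. The interferon genes, with IFNE, are not drawn. Each point is a gene and the line is the median of its list. The list named early targets, which holds genes that sensor signalling or interferon switches on, lies above 0 throughout, with a median of 1.98. The adaptors centre on 0.02.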

How the data were processed

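Estimated counts per gene, 1 table per library, were deposited by the authors and are not normalized: 86.0% to 86.8% of values are whole numbers. The submitters' processing notes name FastQC, Trim Galore, STAR, Salmon, DESeq2 and GRCh38, whereas the study's methods describe STAR and featureCounts on uniquely mapped reads. Whether counting used strand is not given in the sources used here, and the library kit is directional.

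Of 29744 entries, 28 with names turned into dates were left out (0.150% to 0.161% of counts). Names were matched to GENCODE 44 by symbol or RefSeq synonym. Counts were rounded, and protein-coding genes that reached 0.5 RPKM in both libraries of either group entered edgeR 4.0.16 (R 4.3.3), with TMM factors, robust quasi-likelihood and no replicate term. The FDR is the Benjamini-Hochberg value over all 11874 genes. CPM values are TMM-scaled, and RPKM uses union exon length. Dividing the size of a log2 fold change by the square root of its F gave the SE. The fits were tested on simulated data. These had fewer changed genes than were called here and larger changes than those of the sensors, so they do not bear on the sensor calls.

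The sensors and lists were chosen with earlier results of these data known. Beside the sensors and PRMT5, called genes of each list are named, mostly those with the largest changes, and not every called gene is named. Interferon genes above 3 counts are named too, and IFIT2 was picked after its values were seen. Deviations of same-numbered replicates correlated at -0.101, so the numbers were not taken as pairs. The alternatives included DESeq2 1.42.0, scaling, filters, offsets and leaving out a library. The result for 1 gene of the lists is not reported here.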

Additional observations from a re-analysis of the deposited data

How the results depend on the processing

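With 2 libraries per group, 1 library could move most sensor values. Leaving out each library in turn, log2 fold changes ranged over 0.31 to 1.40 for DDX58, 0.49 to 1.32 for IFIH1, 0.27 to 0.94 for DHX58, 0.26 to 0.73 for EIF2AK2, 0.48 to 0.80 for IFI16, 0.38 to 0.73 for ADAR, -0.069 to 1.24 for TLR3, -0.71 to -0.068 for TMEM173, -0.74 to -0.67 for MAVS, 0.82 to 1.08 for MB21D1 and 0.57 to 0.78 for PRMT5. TLR3 alone reversed. Sensors called higher ranged from 1 (without control replicate 2) to 5 and sensors called lower from 1 to 2. Other pathway genes called higher ranged from 18 to 31 and lower from 8 to 19, and all genes from 1358 to 2757 higher and from 1763 to 2944 lower. The lone library left in a group was assumed to vary like the others.

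DHX58 was called with DESeq2 (0.58) and with total counts in place of TMM (0.75). EIF2AK2 was called with total counts (0.66), filterByExpr (0.54), no filter (0.53), all gene names (0.52) and length and GC offsets (0.72). IFIH1 lost its call with no filter (0.90). MAVS lost it with the offsets (-0.35), which left 0 sensors called lower. Total counts moved the median of all genes to 0.17, with 61.5% of calls higher against 46.5%, and called 46 other pathway genes higher and 11 lower. At an absolute log2 fold change of 1, 1027 genes were called higher and 1525 lower, with 0 sensors either way and 19 and 7 other pathway genes. The cause of these shifts was not tested.

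With the replicate number as a block, 5174 genes were called against 5405, and ADAR lost its call (0.55, FDR 0.0552). The block together with length and GC offsets gave 0.74 and a call for EIF2AK2 and -0.35 and none for MAVS, with 0 sensors called lower. The crossed pairing, added after seeing the data, called 5470 genes.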
